A study of Homo sapiens with 3 samples.

Results

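Read-through genes, which are annotated as joining a gene to the next one on the same strand, were examined in RNA sequencing of QBC-939 cells. They were selected on their names and on their counts in these libraries: 2 gene names joined by 1 hyphen, both of which are also genes of the table on the same chromosome and strand. Of 91 such genes, 80 had at least 30 counts summed over the 3 libraries, out of 30923 genes in all, and 11 were below that minimum. The annotated span overlaps both named genes in 79 of the 80, the exception being ARMCX5-GPRASP2 (ENSG00000286237). Each was set beside its 2 component genes, the upstream and the downstream one, and beside the sum of the 3, called the locus sum. QBC-939 is a human cell line from cholangiocarcinoma, a cancer of the bile ducts, and its genotype is labelled WT. In one group the cells overexpressed miR-182-5p, in another miR-183-5p, and the third group is labelled oe-NC and called NC here. The titles of both microRNA libraries end in mim, which the labels do not spell out. They do not otherwise give how the microRNAs were delivered. There was 1 library for each, so no test between groups was possible and every ratio compares single libraries. Ratios are of CPM, the counts of a gene per 1000000 counts in genes of its library, with an exact 95% interval that covers counting error only. A difference of at least 2-fold was counted as such whatever its interval. A library with 0 counts was set to 3 counts, the upper limit that a count of 0 allows, and the fold is then given as at least that large. The count of the other library was taken as exact, so its counting error is not in that bound. Where that count is small, the true fold can be under the bound.

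Transcription normally ends after the cleavage and polyadenylation site of a gene. Where polymerase continues into the neighbouring gene and the spliceosome joins exons of both, a transcript with parts of both genes is made. Annotations give such transcripts a gene of their own, although most of their exons are also exons of the 2 neighbours. Some keep an open reading frame through the join, and others carry a premature stop codon and are annotated as substrates of nonsense-mediated decay. Since reads from shared exons fit both the read-through gene and a component, none of the counts below can be assigned to the read-through gene with certainty. No source used here gives the counting program, its handling of shared exons or its use of strand.

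The joins that distinguish these transcripts are shown for 7 genes with many counts or with all-or-none values, 1 join each, as the 15 bases before the splice junction in lower case and the 15 bases after it, from the downstream part, in capitals (GENCODE 29 transcripts, GRCh38). Only reads that cross such a join, or that fall in exons of its own, belong to the read-through gene alone.
NME1-NME2: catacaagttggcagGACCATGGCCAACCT
ISY1-RAB43: cagaaggctcctgggCTGCAGATCTGGGAC
HSPE1-MOB4: ggttctaaaggaaagGATTTCTATAATTGG
POC1B-GALNT4: acggcaagcaacttgGAAAGGGACAGGCGG
RPS10-NUDT3: accgaattccagtttGTGCTACTCGTGAGC
SENP3-EIF4A1: ctgcaaactcactgtCCAGGGGAATCCTCC
PPAN-P2RY11: gggaaatggatcgagGTGCCAAGTCCTGCC
The join of NME1-NME2 links chr17:51161272 to chr17:51166827 on the plus strand, that of ISY1-RAB43 links chr3:129130088 to chr3:129095169 on the minus strand, and that of HSPE1-MOB4 links chr2:197501238 to chr2:197523624 on the plus strand. All 7 lie in an annotated coding sequence, that of SENP3-EIF4A1 in a transcript annotated for nonsense-mediated decay. Not shown are a second join of POC1B-GALNT4, a second of PPAN-P2RY11, and that of ANKHD1-EIF4EBP3, the gene with the most counts, which lies in a transcript annotated as retained intron and outside coding sequence. The overexpressed microRNAs, from RefSeq on GRCh38.p14, have different seeds, here bases 2 to 8 in capitals, and lie in the same cluster on chromosome 7 (chr7:129770447-129770470 and chr7:129774967-129774988, minus strand).
hsa-miR-182-5p: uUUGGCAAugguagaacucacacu
hsa-miR-183-5p: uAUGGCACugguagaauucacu

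Counts in genes came to 61709874 with miR-182-5p, 67427313 with miR-183-5p and 64516706 in NC, of which mitochondrially encoded genes took 16.7%, 16.1% and 13.5% in the same order. All 7 markers of biliary epithelium were present in each library, with a summed level of 5370 CPM with miR-182-5p, 5820 CPM with miR-183-5p and 6498 CPM in NC. Most of this came from KRT8, at 2772, 3003 and 3423 CPM, and KRT18, at 1623, 1868 and 2099 CPM, in the same order. KRT7 gave 6.17, 6.96 and 4.99 CPM. Hepatocyte markers summed to 0.697, 0.534 and 0.511 CPM, markers of immune and endothelial cells to 5.15, 3.26 and 5.08 CPM, and fibroblast markers to 20.5, 12.5 and 11.2 CPM, of which COL1A1 gave 19.4, 12.3 and 10.4, in the same order. Whether the differences in these totals bear on the read-through genes was not tested.

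The read-through genes differed between libraries more often than genes in general. In the miR-182-5p library against NC, 16 of the 80 were at least 2-fold higher and 19 at least 2-fold lower, together 43.8%, whereas 10.6% of the 20287 genes with at least 30 counts were higher and 3.48% lower, together 14.1%. In the miR-183-5p library against NC, 21 were higher and 14 lower, together again 43.8%, beside 6.98% higher, 4.35% lower and 11.3% in either direction among all genes. Between the microRNA libraries, 13 were higher and 18 lower with miR-182-5p than with miR-183-5p, together 38.8%, beside 7.73% higher, 3.64% lower and 11.4% in either direction among all genes. The members were chosen with these libraries' counts known, and a gene with few counts that lie in 1 library passes the minimum only by differing, so these shares describe the libraries and carry no test. Both comparisons with NC use the same NC library: 10 read-through genes were higher in both, 10 were lower in both, and 4 were higher in one and lower in the other. On the scale of log2 (FPKM + 1), which also scales by length and leaves out genes under an FPKM of 1 in both libraries, 5 of 40 read-through genes were higher and 3 lower with miR-182-5p than in NC, beside 0.654% higher and 0.357% lower of all genes. With miR-183-5p 6 of 41 were higher than NC and 3 lower, beside 0.412% and 0.265%. Between miR-182-5p and miR-183-5p 5 of 46 were higher and 6 lower, beside 0.424% and 0.318%. On the log2 scale of CPM ratios, the median absolute difference of the 80 genes was 0.84 (miR-182-5p against NC), 0.75 (miR-183-5p against NC) and 0.50 (miR-182-5p against miR-183-5p), against 0.31, 0.20 and 0.22 for all genes. The signed medians were nearer to 0, at 0.31, 0.11 and 0.08 for read-through genes and 0.06, -0.01 and 0.05 for all genes.

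The component genes differed less often. Of the 146 distinct components with at least 30 counts, 10 were higher and 5 lower with miR-182-5p than in NC, or 10.3%, 7 were higher and 9 lower with miR-183-5p than in NC, or 11%, and 10 were higher and 6 lower with miR-182-5p than with miR-183-5p, or 11%. These shares were close to those of all genes. Other genes that overlap a neighbour were also near the background. Among the 5223 other genes that overlap a gene on the same strand, 14.8% (miR-182-5p against NC), 12.4% (miR-183-5p against NC) and 12.4% (miR-182-5p against miR-183-5p) differed at least 2-fold, and among the 14838 genes with no such overlap 13.8%, 10.8% and 10.9% did. In 29 of the 35 read-through genes that differed between the miR-182-5p library and NC, neither component differed 2-fold. The same held for 28 of 35 between miR-183-5p and NC, and for 22 of 31 between the microRNA libraries.

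Added up over the 3 genes of a locus, the differences were small. For many loci this was near fixed in advance by the make-up of the sum. The read-through gene held under 10% of the locus counts at 46 loci with miR-182-5p, 39 with miR-183-5p and 47 in NC. Losing all counts of such a gene would move its sum by under 10%. Only 1 of 80 locus sums differed 2-fold between the miR-182-5p library and NC, BOLA2-SMG1P6, and 1 between the miR-183-5p library and NC, KLRC4-KLRK1. The same 2 loci were the ones past 2-fold between the microRNA libraries. All other locus sums lay between 0.5 and 2 times the library they were set against. The median absolute log2 difference of the locus sums was 0.24, 0.13 and 0.16 in the 3 comparisons, in the order given above. Within 1.2-fold were 47 (miR-182-5p against NC), 71 (miR-183-5p against NC) and 60 (miR-182-5p against miR-183-5p) of the 80 locus sums, but 12, 21 and 21 of the read-through genes. A sum holds more counts than any of its parts, and the part of depth in this contrast was not tested: 69 locus sums had at least 3000 counts, none of which differed 2-fold in any comparison, and of all genes with at least 3000 counts 0.369%, 0.201% and 0.201% did. Among the read-through genes that differed, the components' summed CPM differed in the opposite direction in 25 of 35, 24 of 35 and 22 of 31, and among all 80 genes in 48, 47 and 44.

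**Figure D1:**
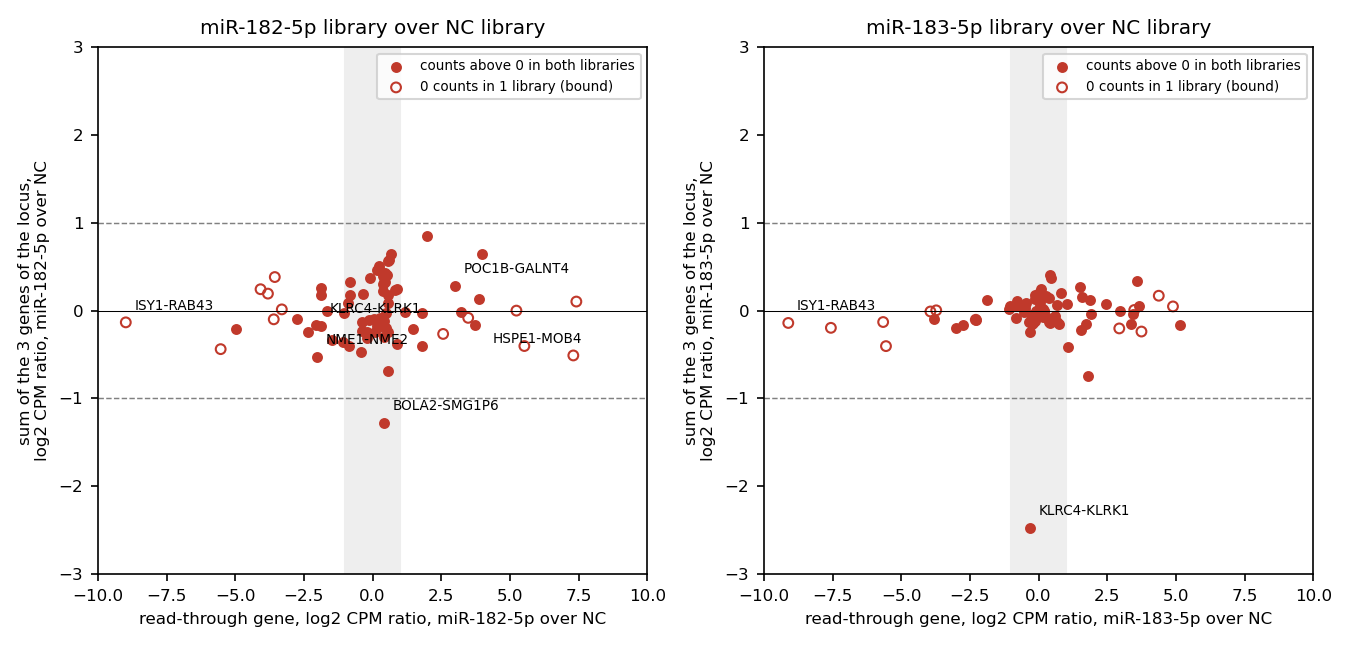
Each point is 1 of the 80 read-through genes, with the log2 CPM ratio of the gene on the horizontal axis and that of the sum of the gene and its 2 components on the vertical axis, for the miR-182-5p library over NC (left) and the miR-183-5p library over NC (right). Open circles have 0 counts in 1 of the 2 libraries and are placed at the bound; grey shading and dashed lines mark 2-fold, and 1 locus sum in each panel lies outside the dashed lines (BOLA2-SMG1P6 at 0.412 and KLRC4-KLRK1 at 0.180 times NC).

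The share of read-through genes that differed was above that of all genes in each range of counts. Of the 26 with at least 30 and under 300 counts over the 3 libraries, 73.1% differed 2-fold between miR-182-5p and NC and 76.9% between miR-183-5p and NC, against 38.7% and 32.9% of all genes with such counts. With at least 300 and under 3000 counts there were 39, of which 35.9% and 33.3% differed, against 7.56% and 3.80% of all genes. With at least 3000 counts there were 15, of which 2 differed in each comparison, or 13.3%, against 0.369% and 0.201%. They were SENP3-EIF4A1 in both, with NME1-NME2 for miR-182-5p and RPS10-NUDT3 for miR-183-5p. Read-through genes were also more often at 0 counts in a library: 18 of 80, or 22.5%, had 0 counts in at least 1 library, against 2.09% of all genes with at least 30 counts. Of these, 11 were at 0 in 1 library and 7 in 2. Counts in a single library occurred in 2 genes for miR-182-5p, 1 for miR-183-5p and 4 for NC, so no library was the only source. A count of 0 in these libraries allows 0.0486 CPM (miR-182-5p), 0.0445 CPM (miR-183-5p) and 0.0465 CPM (NC).

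**Figure D2:**
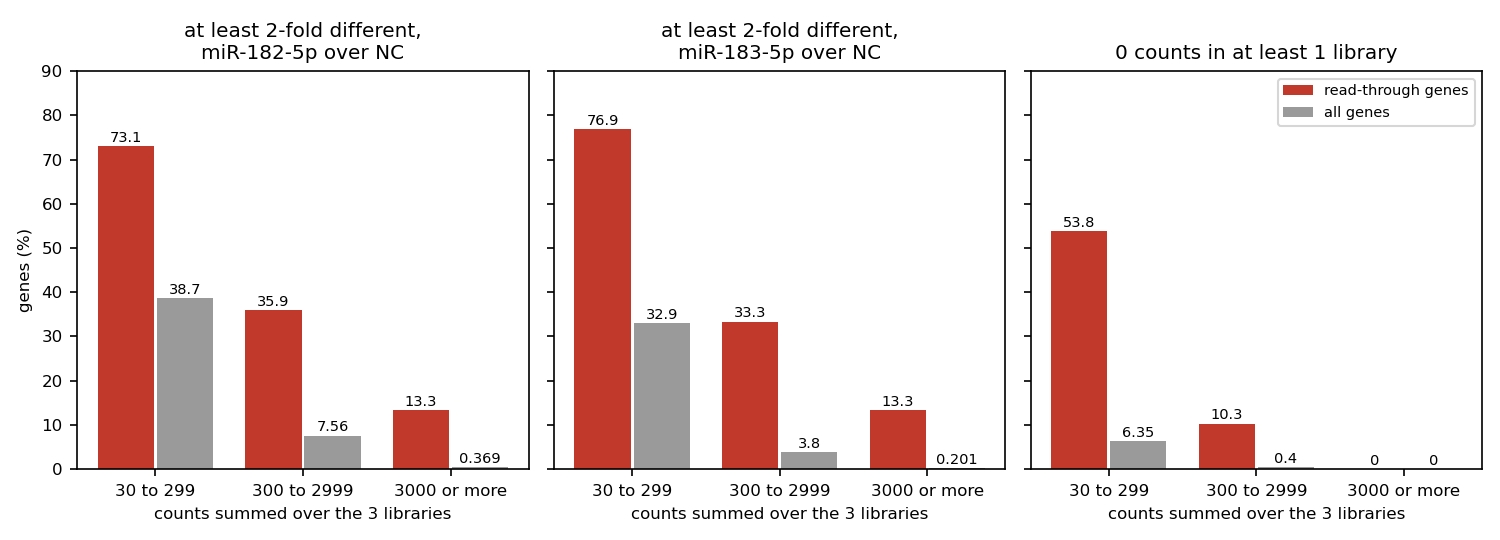
Share of genes that differ at least 2-fold between the miR-182-5p library and NC (left) or the miR-183-5p library and NC (middle), and share with 0 counts in at least 1 library (right), for the 80 read-through genes (red) and all 20287 genes with at least 30 counts (grey), by counts summed over the 3 libraries. The red bar is higher in every range for the 2-fold differences and in the 2 lower ranges for the zeros, and both are 0 for zeros at 3000 counts or more.

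Summed over the 80 genes, the share of all counts was 0.0947% with miR-182-5p, 0.0994% with miR-183-5p and 0.0746% in NC, and their median share of the locus counts was 7%, 10.5% and 6.35%. Counts are compared here as counts and not per transcript length. The highest CPM of a gene was in the miR-182-5p library for 33, in the miR-183-5p library for 24 and in the NC library for 23.

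Several of the read-through genes with the most counts join genes of protein synthesis or nucleotide supply. NME1-NME2 (chr17:51153590-51171744, plus strand) joins the nucleoside diphosphate kinases NME1, long studied as a suppressor of metastasis, and NME2. It stood at 22.9 CPM with miR-182-5p, 75.6 CPM with miR-183-5p and 93.5 CPM in NC, low in the miR-182-5p library alone, with a ratio to NC of 0.245 (0.231 to 0.259) for miR-182-5p and 0.808 (0.778 to 0.839) for miR-183-5p. NME1 was at 0.697 and 0.775 times NC, NME2 at 0.831 and 0.885, and the locus sum at 0.693 and 0.845. The read-through gene held 6.36% of its locus counts with miR-182-5p, 17.2% with miR-183-5p and 18% in NC.

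RPS10-NUDT3 (chr6:34284887-34426071, minus strand) joins a protein of the small ribosomal subunit to a hydrolase of inositol pyrophosphates. It was highest with miR-183-5p, at 89.2 CPM with miR-182-5p, 142 CPM with miR-183-5p and 48.8 CPM in NC, or 1.83 (1.75 to 1.91) and 2.92 (2.80 to 3.04) times NC. RPS10, whose processed pseudogenes can share its reads, went the other way, at 0.629 and 0.655 times NC, and NUDT3 was at 0.970 and 0.813. The locus sum was at 0.768 and 0.857 times NC. SENP3-EIF4A1 (chr17:7563287-7578715, plus strand) joins a SUMO protease to the RNA helicase of translation initiation and is annotated for nonsense-mediated decay. It was high in both microRNA libraries, at 119.6 CPM with miR-182-5p, 113 CPM with miR-183-5p and 34.4 CPM in NC, or 3.47 (3.31 to 3.64) and 3.28 (3.13 to 3.44) times NC, and at 1.06 (1.03 to 1.09) with miR-182-5p over miR-183-5p. Its components were lower than in NC: SENP3 was at 0.544 and 0.644, and EIF4A1 at 0.665 and 0.823.

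ANKHD1-EIF4EBP3 (chr5:140401908-140549569, plus strand), the read-through gene with the most counts, joins an ankyrin-repeat protein to a repressor of the cap-binding factor eIF4E. It had 146 CPM with miR-182-5p, 157 CPM with miR-183-5p and 98.3 CPM in NC, or 1.48 (1.44 to 1.53) and 1.59 (1.54 to 1.64) times NC, under 2-fold in both. ANKHD1 was at 90.4 CPM (miR-182-5p), 62.0 CPM (miR-183-5p) and 111 CPM (NC), the reverse order of the libraries, and the locus sum was at 1.13 and 1.04 times NC. RPL17-C18orf32 (chr18:49481681-49492479, minus strand), which starts in a gene of the large ribosomal subunit, had 246 counts with miR-182-5p, 0 with miR-183-5p and 542 in NC. It was at 0 with miR-183-5p alone, at least 189-fold lower than NC, and at 0.475 (0.406 to 0.553) times NC with miR-182-5p. RPL17 itself was at 0.776 and 0.882 times NC, and read-through counts were at most 2.11% of the locus.

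**Figure D3:**
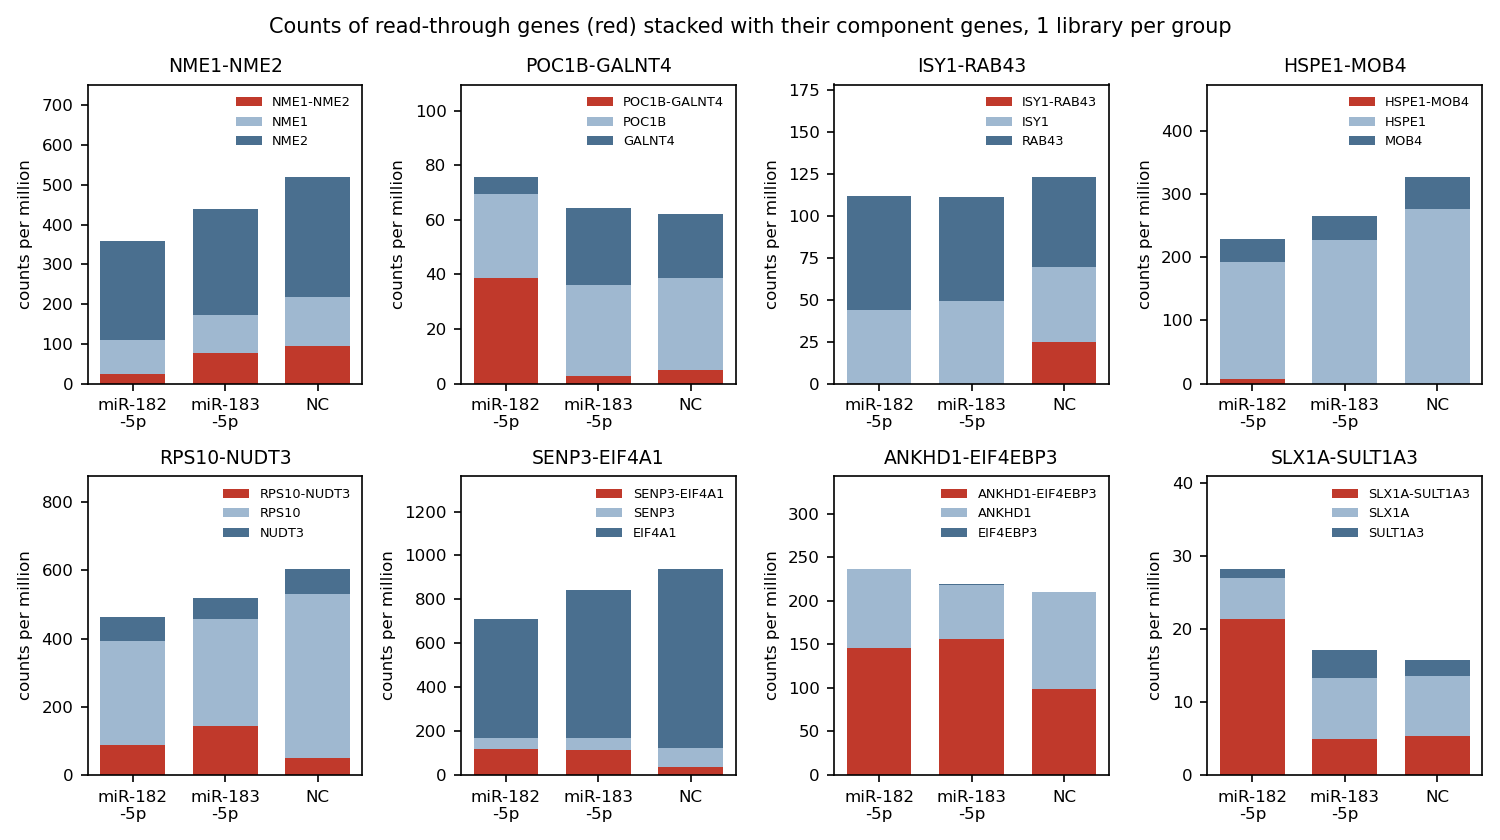
Stacked CPM of the read-through gene (red, bottom), the upstream gene (light blue) and the downstream gene (dark blue) at 8 loci, 1 library per bar and no error bars, with bars running from miR-182-5p through miR-183-5p to NC. The red part differs several-fold between libraries at POC1B-GALNT4, SLX1A-SULT1A3 and SENP3-EIF4A1 and is 0 in both microRNA libraries at ISY1-RAB43, while full bar heights differ less than 2-fold at all 8 loci.

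A second group joins small GTPases and genes of membrane traffic. ISY1-RAB43 (chr3:129087575-129161036, minus strand) joins the splicing factor ISY1 to RAB43, a GTPase of the Golgi. It had 0 counts with miR-182-5p, 0 with miR-183-5p and 1588 in NC, so all of its counts lay in NC, and was at least 506-fold lower with miR-182-5p and at least 553-fold lower with miR-183-5p. Its components had no such difference: ISY1 was at 0.977 (0.927 to 1.03) and 1.10 (1.05 to 1.16) times NC, and RAB43 at 1.27 (1.22 to 1.33) and 1.16 (1.11 to 1.21). The locus sum was at 0.911 and 0.907 times NC, and the read-through gene held 20% of the locus counts in NC.

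RAB4B-EGLN2 (chr19:40778242-40808418, plus strand) joins a GTPase of endosome recycling to an oxygen-sensing prolyl hydroxylase. It was highest in the miR-183-5p library, at 1.34 CPM with miR-182-5p, 13.6 CPM with miR-183-5p and 0.387 CPM in NC, or 35.1 (23.6 to 54.5) times NC with miR-183-5p and 3.47 (2.20 to 5.67) with miR-182-5p. RAB4B was low in that same library, at 12.2 CPM (miR-182-5p), 6.60 CPM (miR-183-5p) and 15.1 CPM (NC), and EGLN2 was at 86.8 CPM (miR-182-5p), 71.6 CPM (miR-183-5p) and 87.1 CPM (NC). RAB4B is also the downstream part of MIA-RAB4B, named after its values were seen, which was likewise high with miR-183-5p at 0.778 CPM (miR-182-5p), 3.16 CPM (miR-183-5p) and 0.899 CPM (NC). ARPIN-AP3S2, from an inhibitor of actin branching into an adaptor of vesicle sorting, had 0.924 CPM (miR-182-5p), 5.25 CPM (miR-183-5p) and 0.666 CPM (NC), again highest with miR-183-5p, while both its components lay between 0.878 and 1.06 times NC.

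ARL2-SNX15, from a GTPase of tubulin folding into a sorting nexin, had 132 counts with miR-182-5p, 42 with miR-183-5p and 0 in NC, present in both microRNA libraries only, and was at least 46.0-fold higher with miR-182-5p and at least 13.4-fold higher with miR-183-5p than in NC. Its components were at 0.713 to 0.845 times NC. SYS1-DBNDD2, which starts in a gene of Golgi transport, had 6 counts (miR-182-5p), 9 counts (miR-183-5p) and 42 counts (NC) and was lower in both microRNA libraries, at 0.149 (0.0519 to 0.353) and 0.205 (0.0878 to 0.427) times NC. GET1-SH3BGR, which starts in a gene for inserting tail-anchored membrane proteins, had 54 counts (miR-182-5p), 79 counts (miR-183-5p) and 6 counts (NC) and was higher in both, at 9.41 (4.05 to 26.8) and 12.6 (5.54 to 35.4) times NC. TMEM256-PLSCR3, which ends in a phospholipid scramblase of mitochondria, had 178 counts (miR-182-5p), 0 counts (miR-183-5p) and 14 counts (NC), 13.3 times NC with miR-182-5p and at least 4.88-fold lower than NC with miR-183-5p.

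Chaperone, mitochondrial and metabolic genes went in several directions. HSPE1-MOB4 (chr2:197500413-197550726, plus strand) joins the mitochondrial co-chaperonin HSPE1 to MOB4, a subunit of the STRIPAK phosphatase complex. It had 454 counts with miR-182-5p, 0 with miR-183-5p and 0 in NC, so all of its counts lay in the miR-182-5p library, and was at least 158-fold higher there than in NC and at least 165-fold higher than with miR-183-5p. HSPE1 was lower than in NC in both libraries, at 0.671 (0.655 to 0.687) and 0.824 (0.806 to 0.842), as was MOB4, at 0.726 (0.687 to 0.766) and 0.765 (0.726 to 0.806). HSPE1 also has processed pseudogenes that can share reads. The read-through gene made up 3.21% of the locus with miR-182-5p.

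ATP5MF-PTCD1, from a subunit of ATP synthase into a mitochondrial RNA-binding protein, had 15 counts (miR-182-5p), 6 counts (miR-183-5p) and 81 counts (NC) and was lower in both, at 0.194 (0.104 to 0.339) and 0.0709 (0.0253 to 0.161) times NC. C1QTNF3-AMACR, which ends in a racemase of fatty acid oxidation, had 0 counts (miR-182-5p), 0 counts (miR-183-5p) and 38 counts (NC), while its upstream gene C1QTNF3 had 144 counts (miR-182-5p), 166 counts (miR-183-5p) and 21 counts (NC), low where the read-through gene was high. ST20-MTHFS, which ends in a folate enzyme, had 2 counts (miR-182-5p), 10 counts (miR-183-5p) and 65 counts (NC), lowest with miR-182-5p at 0.0322 (0.00381 to 0.121) times NC. FAM47E-STBD1, which ends in a glycogen-binding protein, had 0 counts (miR-182-5p), 204 counts (miR-183-5p) and 53 counts (NC) and was high with miR-183-5p at 3.68 (2.71 to 5.08) times NC and at least 16.9-fold lower than NC with miR-182-5p. Both FAM47E and STBD1 had the opposite order, at 1.43 and 1.30 times NC with miR-182-5p and 0.727 and 0.728 with miR-183-5p.

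At POC1B-GALNT4 (chr12:89519408-89526262, minus strand), a centriole gene is joined to GALNT4, an enzyme that starts O-linked glycosylation and whose gene lies within the span of POC1B. The read-through gene stood at 38.8 CPM with miR-182-5p, 2.73 CPM with miR-183-5p and 4.82 CPM in NC, high with miR-182-5p alone, or 8.04 (7.14 to 9.08) times NC with miR-182-5p and 0.566 (0.469 to 0.681) with miR-183-5p. GALNT4 had the opposite order, at 6.19 CPM with miR-182-5p, 28.1 CPM with miR-183-5p and 23.5 CPM in NC, or 0.263 (0.235 to 0.295) and 1.2 (1.12 to 1.28) times NC. POC1B was at 0.909 and 0.994 and the locus sum at 1.22 (1.17 to 1.27) and 1.04 (0.993 to 1.08). The read-through gene held 51.3% of its locus counts with miR-182-5p, 4.24% with miR-183-5p and 7.77% in NC.

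PTGES3L-AARSD1 (chr17:42950526-42980528, minus strand), from a co-chaperone gene into an editing factor for alanyl-tRNA, was low in both microRNA libraries at 3.5 CPM with miR-182-5p, 1.82 CPM with miR-183-5p and 14.7 CPM in NC, or 0.237 (0.204 to 0.276) and 0.124 (0.102 to 0.149) times NC. AARSD1 was higher in both, at 1.32 (1.23 to 1.42) and 1.39 (1.30 to 1.49), and the locus sum was at 0.892 and 0.872. PPAN-P2RY11 (chr19:10106223-10114780, plus strand), from a gene of ribosome biogenesis into a receptor for extracellular ATP, had 490 counts with miR-182-5p, 65 with miR-183-5p and 0 in NC, at least 171-fold higher with miR-182-5p and at least 20.7-fold higher with miR-183-5p than in NC. P2RY11 was higher in both as well, at 1.82 (1.57 to 2.12) and 2.45 (2.13 to 2.82), and PPAN was at 0.819 and 0.972. PMF1-BGLAP, from a kinetochore gene into that of osteocalcin, was high with miR-183-5p alone at 0.211 CPM (miR-182-5p), 6.13 CPM (miR-183-5p) and 0.589 CPM (NC), or 10.4 (7.45 to 14.9) times NC with miR-183-5p and 0.358 (0.175 to 0.686) with miR-182-5p.

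Further genes named by the rule had few counts and span genes of DNA repair, signalling and transport. Of these, 2 had counts in NC alone: ABCF2-H2BE1, which ends in a histone H2B gene, had 0 counts (miR-182-5p), 0 counts (miR-183-5p) and 145 counts (NC), and BIVM-ERCC5, which ends in an endonuclease of nucleotide excision repair, had 0 counts (miR-182-5p), 0 counts (miR-183-5p) and 44 counts (NC). SLCO1B3-SLCO1B7, of organic anion transporters, had 0 counts (miR-182-5p), 22 counts (miR-183-5p) and 37 counts (NC). TSNAX-DISC1 had 0 counts (miR-182-5p), 22 counts (miR-183-5p) and 31 counts (NC), like the transporter pair at 0 with miR-182-5p alone, and MSANTD3-TMEFF1 113 counts (miR-182-5p), 0 counts (miR-183-5p) and 135 counts (NC), at 0 with miR-183-5p alone. BCL2L2-PABPN1, from an inhibitor of apoptosis into the nuclear poly(A)-binding protein, had 56 counts (miR-182-5p), 23 counts (miR-183-5p) and 4 counts (NC), or 14.6 (5.41 to 55.6) times NC with miR-182-5p. ARMCX5-GPRASP2 (ENSG00000286237) had 108 counts (miR-182-5p), 93 counts (miR-183-5p) and 0 counts (NC), although its span does not overlap both components, and a second gene of that name (ENSG00000271147) had 223 counts (miR-182-5p), 269 counts (miR-183-5p) and 225 counts (NC) and did not differ 2-fold. The genes just inside the minimum were CHURC1-FNTB with 37 counts, of which 34 lay in the miR-183-5p library, TNFSF12-TNFSF13, of the cytokines TWEAK and APRIL, with 35, all in the miR-183-5p library, and ARHGAP19-SLIT1 with 32, all in the miR-182-5p library. Just outside were RNF103-CHMP3 with 28, URGCP-MRPS24 with 27, all in NC, and SYNJ2BP-COX16 with 23.

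Some read-through genes lie in or beside segmental duplications, where reads can also fit a near-identical copy elsewhere. BMS1P4-AGAP5 (chr10:73674295-73730466, minus strand) was low with miR-182-5p and high with miR-183-5p, at 1.10 CPM with miR-182-5p, 12.2 CPM with miR-183-5p and 4.05 CPM in NC, or 0.272 (0.205 to 0.357) and 3.01 (2.62 to 3.48) times NC. Both components had the opposite order, BMS1P4 at 10.5 CPM (miR-182-5p), 3.69 CPM (miR-183-5p) and 5.86 CPM (NC) and AGAP5 at 10.2 CPM (miR-182-5p), 4.43 CPM (miR-183-5p) and 8.40 CPM (NC), and the locus sum was at 1.19 and 1.11. The following were named after their values were seen. SLX1A-SULT1A3, from an endonuclease subunit into a sulfotransferase of catecholamines, was high with miR-182-5p at 21.3 CPM (miR-182-5p), 4.88 CPM (miR-183-5p) and 5.35 CPM (NC), whereas its near-identical copy SLX1B-SULT1A4 had 14.6 CPM (miR-182-5p), 10.5 CPM (miR-183-5p) and 10.1 CPM (NC). At BOLA2-SMG1P6 the locus sum was past 2-fold through BOLA2, which had 7 counts (miR-182-5p), 543 counts (miR-183-5p) and 570 counts (NC) and has a near-identical copy, and not through the read-through gene, at 130 counts (miR-182-5p), 73 counts (miR-183-5p) and 102 counts (NC). KLRC4-KLRK1, of receptors of natural killer cells, had 5 counts (miR-182-5p), 16 counts (miR-183-5p) and 19 counts (NC), and its components had no counts with miR-183-5p, so the fold of that locus sum rests on 16 counts there.

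The other 4 of the 8 read-through genes with the most counts differed by less than 2-fold in each comparison with NC. HNRNPUL2-BSCL2 had 48.2 CPM (miR-182-5p), 58.0 CPM (miR-183-5p) and 43.4 CPM (NC), PDXDC2P-NPIPB14P 37.1 CPM (miR-182-5p), 27.5 CPM (miR-183-5p) and 27.2 CPM (NC), TEN1-CDK3 34.1 CPM (miR-182-5p), 29.9 CPM (miR-183-5p) and 26.5 CPM (NC) and MSH5-SAPCD1 24.9 CPM (miR-182-5p), 23.1 CPM (miR-183-5p) and 19.4 CPM (NC). Their ratios to NC lay between 1.01 and 1.37. TEN1, the upstream gene of TEN1-CDK3 and part of the telomere-capping CST complex, was low in both microRNA libraries with 25 counts (miR-182-5p), 41 counts (miR-183-5p) and 201 counts (NC). Not named by the rule were 43 read-through genes, between 0 and 25.8 CPM, of which 4 were higher and 4 lower than NC with miR-182-5p and 6 higher and 3 lower with miR-183-5p. Among all genes, 14.1% (miR-182-5p against NC) and 11.3% (miR-183-5p against NC) differed in either direction. The rule had already taken out the largest folds, so these 43 are not a sample of the read-through genes. One of the 43, TGIF2-RAB5IF, had a library at 0, with 17 counts with miR-182-5p, 24 with miR-183-5p and 0 in NC.

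Between the microRNA libraries, most genes with the largest ratios were at 0 in one of the pair. Higher with miR-182-5p were HSPE1-MOB4, RPL17-C18orf32 (at least 89.6-fold higher than with miR-183-5p), TMEM256-PLSCR3 (at least 64.8-fold higher), MSANTD3-TMEFF1 (at least 41.2-fold higher) and POC1B-GALNT4, at 14.2 (12.2 to 16.6) times the miR-183-5p library. Lower with miR-182-5p were FAM47E-STBD1 (at least 62.2-fold lower), PMF1-BGLAP at 0.0344 (0.0182 to 0.0595), BMS1P4-AGAP5 at 0.0904 (0.0695 to 0.116), TNFSF12-TNFSF13 (at least 10.7-fold lower) and CHURC1-FNTB (at least 10.4-fold lower). NME1-NME2 stood at 0.303 (0.285 to 0.321) with a locus sum at 0.821. ISY1-RAB43, at 0 in both, has no ratio here.

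At 29 loci the read-through gene held at least 20% of the counts in at least 1 library, a set chosen after the values were seen. Of these, 9 (miR-182-5p against NC), 7 (miR-183-5p against NC) and 8 (miR-182-5p against miR-183-5p) differed 2-fold, and at each of them the components' summed CPM differed the opposite way. A gene can enter this set through the library where its share is high. Where the locus sum is steady, a 2-fold difference of such a gene leaves its components to differ the opposite way. The opposite directions were thus close to fixed in advance and carry no support. The locus sums of the genes that differed ran from 0.864 to 1.80, from 0.594 to 1.21 and from 1.06 to 4.92 in the 3 comparisons. Past 2-fold was 1 of these sums, KLRC4-KLRK1 in the last comparison. DUS4L-BCAP29, from a dihydrouridine synthase gene of transfer RNA into a gene of the endoplasmic reticulum, made up 7.06% with miR-182-5p, 25.1% with miR-183-5p and 14.4% in NC, while the sum was at 0.983 and 0.913 times NC. ABHD14A-ACY1, which ends in an aminoacylase gene, held 5.13% with miR-182-5p, 21.4% with miR-183-5p and 16.1% in NC, with the sum at 0.998 and 0.943. At other loci the share was stable, as at STIMATE-MUSTN1 with 51.2% with miR-182-5p, 47.8% with miR-183-5p and 47.9% in NC and MSH5-SAPCD1 with 46.2% with miR-182-5p, 49.9% with miR-183-5p and 47.0% in NC.

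**Figure D4:**
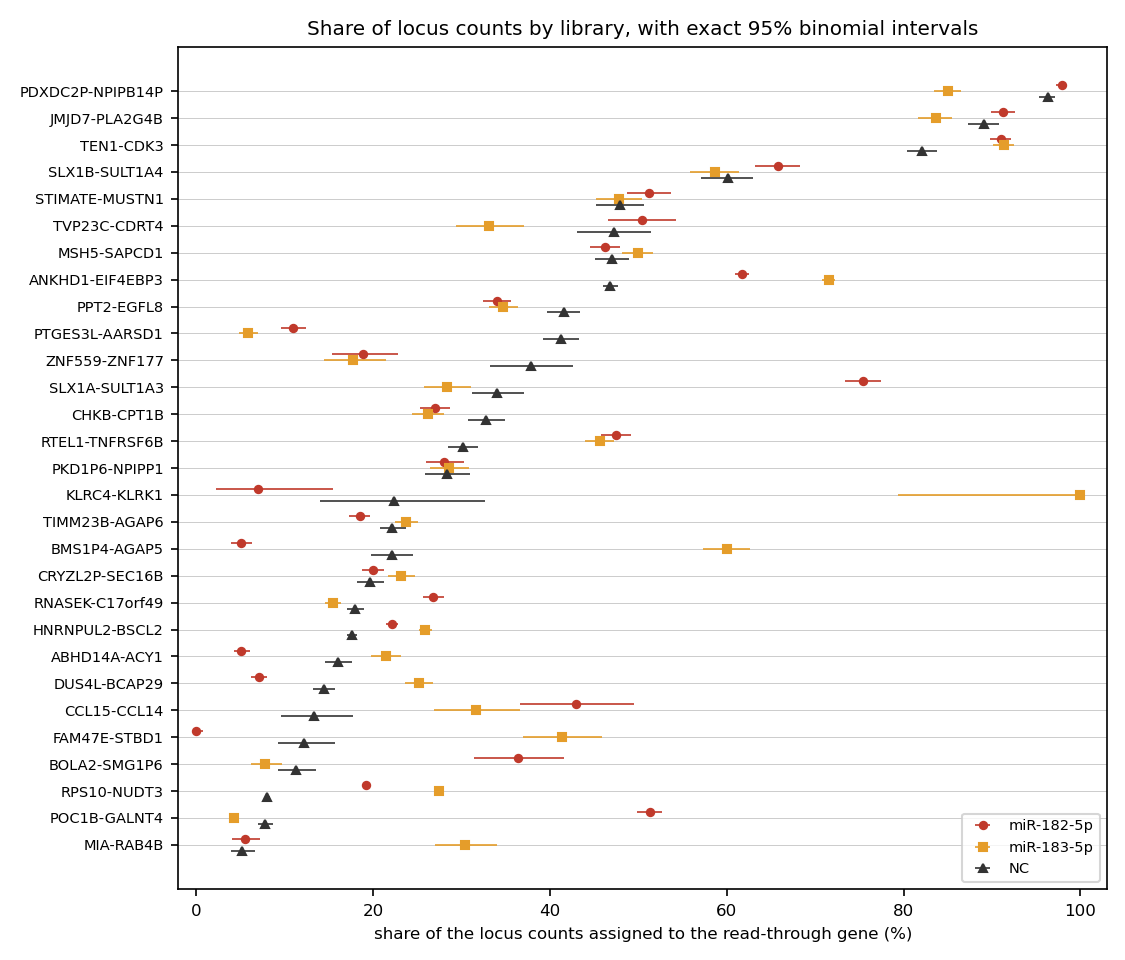
Share of the counts of a locus that was assigned to the read-through gene in each library, with exact 95% binomial intervals, at the 29 loci where it reached 20% in at least 1 library, ordered by the share in NC. POC1B-GALNT4 (51.3%, 4.24% and 7.77%) and BMS1P4-AGAP5 (5.05%, 60.0% and 22.1%, NC last) are spread wide, while the 3 libraries lie together at STIMATE-MUSTN1.

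The annotated structure of the genes, which the choice of members did not use, is set here beside how much they differed, with no test. In GENCODE 29, for the 78 genes matched with both components, a median of 6.31% of the exonic bases lay in neither component, from 0 to 86.5%, and 18 genes had no exonic base of their own. Some were matched on part of their transcripts only, as DUS4L-BCAP29 on 1 of 5. A median of 2 of 11.5 introns was in neither component. The components lay apart at 74 loci, by a median of 7147.5 bases and at most 108016. Of the 39 genes at or below the median share of own exons, 24 (miR-182-5p against NC), 25 (miR-183-5p against NC) and 22 (miR-182-5p against miR-183-5p) differed 2-fold and 14 had 0 counts in a library. Of the 39 above it, 10, 9 and 9 differed and 3 had a 0. Their counts differed too, with a median total of 454 in the first set and 954 in the second, and the part of depth in this contrast was not tested. NME1-NME2, ISY1-RAB43, HSPE1-MOB4, RAB4B-EGLN2 and RPL17-C18orf32 had no exonic base of their own, POC1B-GALNT4 had 4.33% and PPAN-P2RY11 2.48%, whereas PDXDC2P-NPIPB14P had 46.0% and TEN1-CDK3 34.2%. Exceptions went both ways. ARHGAP19-SLIT1 had 58.4% and counts in 1 library alone, and BIVM-ERCC5 had 23.0% and counts in NC alone. SENP3-EIF4A1 had 15.3% and stood at 3.47 times NC with miR-182-5p. HNRNPUL2-BSCL2, RPL36A-HNRNPH2, DNAJC25-GNG10 and ATP6V1G2-DDX39B had no exonic base of their own. Their ratios to NC lay only between 0.718 and 1.34 in both microRNA libraries.

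**Figure D5:**
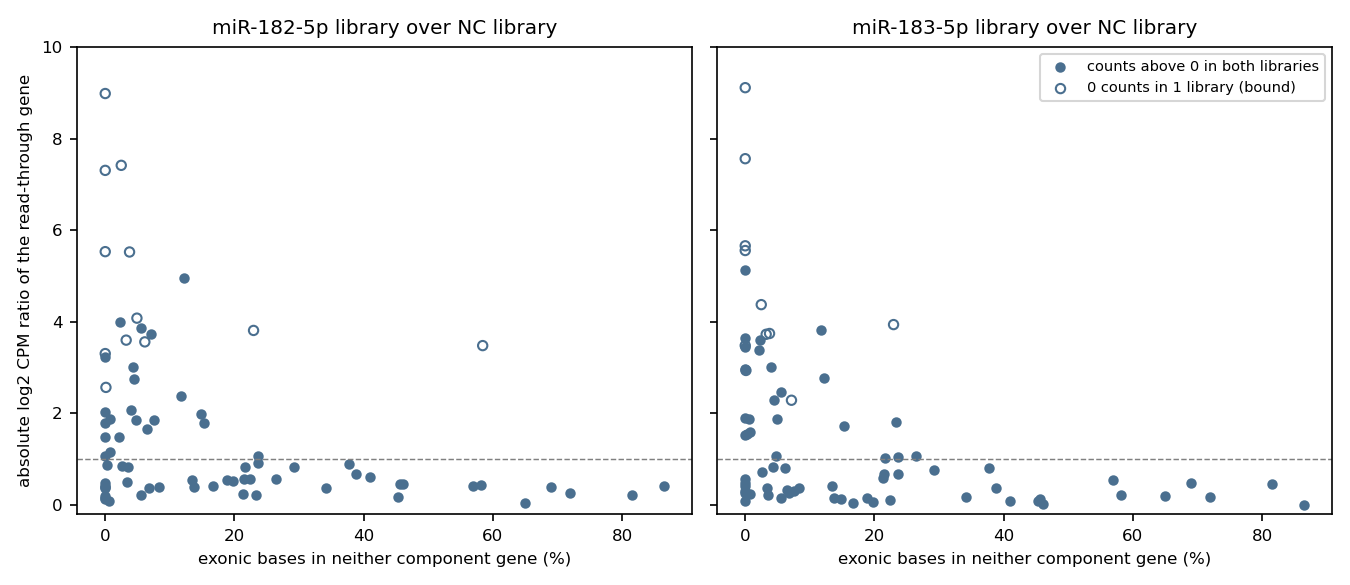
Absolute log2 CPM ratio of each read-through gene for the miR-182-5p library over NC (left) and the miR-183-5p library over NC (right), against the share of its exonic bases that lie in neither component gene. Open circles are bounds from a count of 0 and the dashed line is 2-fold; the points above the line lie at a share below 30% in both panels, except ARHGAP19-SLIT1 at 58.4% in the left one.

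Read-through genes often share the start of their upstream gene. Of 54 with a RefSeq start for themselves and the upstream gene, 27 had the same start, and none shared that of the downstream gene. By the transcript types in the deposited table, 44 of the 80 list a protein-coding transcript, 27 list one for nonsense-mediated decay and none that codes, and 9 list neither. In the first set 21, 21 and 19 differed 2-fold in the 3 comparisons, in the second 12, 13 and 10, and in the third 2, 1 and 2.

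Some read-through genes share a match to a microRNA seed with their downstream gene. NME1-NME2 and NME2 end in the same 3' UTR, which holds 1 match to the miR-182-5p seed at chr17:51171718-51171724 (plus strand, GRCh38), in capitals here.
NME1-NME2 and NME2: atagagcatatTTGCCAAtaaagcttttg
With miR-182-5p, NME1-NME2 was at 0.245 (0.231 to 0.259) and NME2 at 0.831 (0.814 to 0.849) times NC. ISY1-RAB43 and RAB43 likewise share a miR-182-5p match at chr3:129087998-129088004 (minus strand), and RAB43 was at 1.27 times NC while ISY1-RAB43 had 0 counts. They also share a miR-183-5p match at chr3:129091259-129091265, which in RAB43 lies outside its longest 3' UTR. With miR-183-5p, ISY1-RAB43 had 0 counts as well, while RAB43 was higher than NC. Neither NME1-NME2 nor ISY1-RAB43 has an exonic base of its own, so reads over these matches fit the downstream gene as well. Whether the matches bear on these counts was not tested. Of 42 read-through genes with an annotated 3' UTR, 6 held a match to miR-182-5p (TTGCCAA) and 1, ISY1-RAB43, to miR-183-5p (GTGCCAT), each searched on the transcript strand of the longest 3' UTR. For upstream genes this was 8 and 5 of 74, and for downstream genes 15 and 6 of 75. HSPE1-MOB4, POC1B-GALNT4 and PPAN-P2RY11 held neither, although MOB4 itself holds 1 of each. A match is a run of letters and not a shown site.

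Genes of 3' end formation, whose products decide where transcription ends, were listed beside the read-through genes. None of the 29 differed 2-fold, but all had at least 3000 counts, where 0.369% (miR-182-5p against NC), 0.201% (miR-183-5p against NC) and 0.201% (miR-182-5p against miR-183-5p) of all genes did, so a count of 0 is the background. They lay between 0.675 and 1.30 times NC with miR-182-5p, between 0.785 and 1.16 with miR-183-5p, and between 0.843 and 1.28 with miR-182-5p over miR-183-5p. The lowest with miR-182-5p was CLP1 and the highest PCF11, both of the cleavage factor that also dismantles elongating polymerase, and the exonuclease XRN2, which trails polymerase after cleavage, was at 0.913 times NC with miR-182-5p. The 3 protein genes particular to the U1 snRNP, which holds back premature cleavage, were at 1.01 (SNRNP70), 0.874 (SNRPA) and 0.760 (SNRPC) times NC with miR-182-5p, and at 1.02, 1.02 and 0.905 with miR-183-5p. The 18 genes of nonsense-mediated decay also had at least 3000 counts each, and none differed 2-fold, again the background at such counts. Their range was 0.667 to 1.29 times NC for miR-182-5p and 0.829 to 1.17 for miR-183-5p. UPF1, the central helicase of this decay, was at 0.973 (miR-182-5p) and 0.990 (miR-183-5p) times NC. On the log2 scale, the median of the 3' end list was -0.01 (miR-182-5p), 0.01 (miR-183-5p) and -0.03 (miR-182-5p over miR-183-5p), and that of the decay list -0.11, 0.01 and -0.09, beside 0.06, -0.01 and 0.05 for all genes.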

How the data were processed

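Trizol was used for total RNA of the QBC-939 cells, per the labels. Tools named by the submitters' processing notes are cutadapt 1.9 and FastQC. The notes also give GRCm38, a mouse build, although the gene identifiers are human. Of these, 97.29% are in GENCODE 29, and of 30085 matched genes 30057 have the chromosome and strand given there on GRCh38. Only 17896 of the matched genes also have the same start and end, so the annotation that was counted differs from GENCODE 29 for many genes. How far the joins and exon shares given above hold for it was not tested. No source used here gives the aligner, counter, strand handling or annotation release. The counts deposited by the authors are whole numbers per gene. The FPKM values were deposited beside them, per the file headers, and over 14623 genes the transcript length that counts and FPKM imply together differed between the miR-182-5p library and NC by an SD of 0.0052 on the log2 scale. Ratios of CPM, with Clopper-Pearson intervals conditional on the sum of both counts, were computed with Python 3.11.15, pandas 2.3.3 and SciPy 1.17.1. The procedure was tested on simulated data with counting error only and no variation between libraries. Reads were also moved there within loci, which keeps the locus sums by construction. The simulation thus does not show how far single libraries vary. Where a component name had several genes, the one overlapping the read-through gene most was used.

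The members and lists were chosen with earlier results of these data known. Named are the 4 given for the set (ISY1-RAB43, NME1-NME2, HSPE1-MOB4 and POC1B-GALNT4), up to 10 genes in each direction with the largest fold against NC in each comparison and up to 5 between the microRNAs, the 8 with the most counts, the 3 on either side of the minimum, and their components. One gene named by this rule is not reported here. Alternatives were the scale, the library size, the count minimum, the fold, and the definition of the locus and of its sum.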

Additional observations from a re-analysis of the deposited data

How the results depend on the processing

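No paired analysis was possible because each group has 1 library. Of 69 counts recomputed with another setting, 55 stayed within 1.5 times. With log2 (FPKM + 1) in place of CPM, 5 read-through genes were at least 2-fold higher and 3 lower with miR-182-5p than in NC, 6 and 3 with miR-183-5p than in NC, and 5 and 6 with miR-182-5p than with miR-183-5p. By construction this tests fewer genes and shrinks low values. With 0.5 CPM added in place of the floor, 12 and 9 were lower than NC with miR-182-5p and miR-183-5p. With a minimum of 100 counts, which leaves fewer read-through genes, 11 and 8 were lower than NC. The locus sums past 2-fold were then 0 (miR-183-5p against NC) and 1 (miR-182-5p against miR-183-5p). The share of all genes is not given for the added 0.5 CPM or the minimum of 100 counts. Whether read-through genes still differed more often than all genes was thus not tested at these settings. At a fold of 1.5, 5 and 2 locus sums differed from NC with miR-182-5p and miR-183-5p. Of 355 values of named genes, 267 stayed within their interval and 88 moved outside it. A change of sign was counted only for differences of at least 2-fold, and 0 occurred. These settings could hardly reverse such a difference, so that 0 carries no support. Leaving out mitochondrially encoded genes shifted every log2 ratio by 0.06 (miR-182-5p against NC) and 0.04 (miR-183-5p against NC). Without replicates, neither culture nor library preparation can be told apart from the microRNA in any of these values.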
